A study of Mus musculus with 2 samples.

Results

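Messenger RNA of enzymes of sugar, amino acid and nucleotide metabolism was compared between mouse morulae injected with LIF-siRNA and morulae injected with scrambled siRNA. Genes were chosen by the start of the gene name in the array files (for example hexokinase, aldolase, arginase, ornithine or thymidylate) and not by a measured value, although earlier results of these data were known when the name starts were listed. The rule took 73 of 8735 gene spots, which carry 70 gene names. Of these spots, 16 belong to glycolysis and glucose, 3 to the pentose phosphate pathway, 23 to glycogen, nucleotide sugars, galactose and mannose, 19 to amino acids and 12 to nucleotides and nucleosides. By their names, 62 spots are enzymes or regulators of enzymes and 11 are receptors, lectins, a transporter or a chaperone, so that the pathway name does not hold for every spot.

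Both groups were whole B6CBF1 embryos labelled as 4 d old. They had been injected into the cytoplasm after fertilization with siRNA (1.0 fmol in 1 pl by the sample labels, while the text of the study gives other doses), and no uninjected group was measured on these arrays. LIF-siRNA is a small interfering RNA against leukemia inhibitory factor, and the scrambled siRNA is the injected control. RNA of pooled embryos went onto 2 two-color cDNA arrays, with the LIF-siRNA group in Cy5 (red) and the scrambled-siRNA group in Cy3 (green) on both. The dyes were not swapped, so a dye effect of a clone and an effect of LIF-siRNA cannot be told apart. The arrays were assigned by their titles and RNA sources, since a further label that speaks of embryonic stem cells without treatment goes against both. The sources do not say whether the arrays held separate embryo pools, and the p-values then measure only the spread between these 2 arrays, which may be technical. In whole embryos, fewer cells of a type and less RNA per cell cannot be told apart.

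LIF is a cytokine that signals through its receptor and gp130 to JAK and STAT3. Cleaving mouse embryos rely at first on pyruvate and lactate, and uptake and use of glucose grow as the morula compacts and forms the blastocyst. Glycolysis turns glucose into pyruvate, the pentose phosphate pathway draws off glucose 6-phosphate for NADPH and ribose, and thymidylate synthase and thymidylate kinase supply dTTP for DNA synthesis. Ornithine links the urea cycle enzymes to the polyamines, which dividing cells need.

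Signals are the processed intensities of Agilent Feature Extraction in arbitrary units, after background subtraction and dye normalization. In each pair of values array 1 stands before array 2. A log2 ratio is LIF-siRNA over scrambled siRNA, so that a negative value is a lower signal in the LIF-siRNA group, and a mean is that of 2 arrays with its SD. Each array gives its ratio within 1 spot, and a level depends on the clone spotted, so it is no measure of which gene had more RNA. The median gene spot stood 6.42 and 6.60 times above its local background in Cy5 and 5.72 and 4.83 times in Cy3, and 0 gene spots were saturated. The fit held 72 of the 73 spots. The kainate 5 subunit of the ionotropic glutamate receptor was left out because neither channel was well above background. On both arrays, 70 spots were well above background in Cy5 and in Cy3, and 37 had a mean signal above 1000 in at least 1 channel, the study's threshold for brightness. Spots under it are called dim.

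Of the 12 nucleotide and nucleoside spots, 7 had lower signals in the LIF-siRNA group on both arrays, 3 had higher signals on both and 2 differed in sign. Thymidylate synthase, thymidylate kinase and thymidine kinase 1 were among the lower spots, and the thymidylate kinase family LPS-inducible member, a dim spot, was among the higher ones. Of the 14 glycolytic enzymes, 7 were lower on both arrays, 4 were higher on both and 3 differed in sign, and the enzymes around ornithine were in part higher. Over all 72 spots the median log2 ratio was -0.21, beside -0.0040 over the 8079 probes tested. The log2 ratio was below 0 on both arrays for 35 of the 72 spots (48.6%), and 36.8% of all probes met this. It was above 0 on both for 18 spots (25.0%), and 36.7% of all probes met this. Among the 37 spots past the brightness threshold the median was -0.33, beside 0.0021 for the 3527 probes past it. Of these 37 spots, 24 (64.9%) were below 0 on both arrays, against 39.0% of the bright probes, and 7 (18.9%) were above 0 on both, against 39.8%. Around the middle of the range the curve of the 72 spots lies left of that of all probes, and the curve of the bright spots lies farther left. These are counts without a test, and spots of one pathway are not independent replicates.

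**Figure D1:**
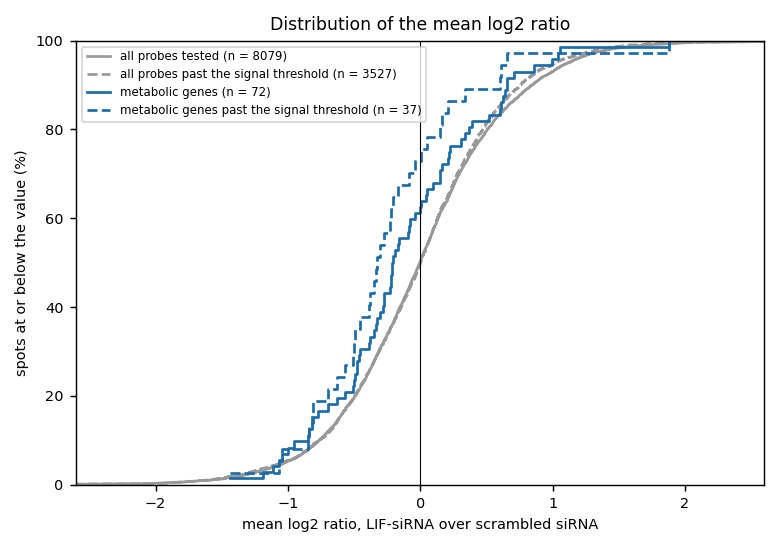
Share of spots (y axis, percent) at or below each mean log2 ratio (x axis, LIF-siRNA over scrambled siRNA, mean of 2 arrays) for the 72 metabolic spots (blue) and the 8079 probes tested (grey), with dashed lines for spots past the signal threshold of 1000. The median is -0.21 for the metabolic spots and -0.33 for the bright ones, against -0.0040 and 0.0021 for the probes in grey.

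No spot had a limma adjusted p below 0.05 among the 72 or among all 8079 probes (0%). At an unadjusted limma p below 0.05, 11 of the 72 spots were higher (15.3%, against 15.9% of all probes) and 12 were lower (16.7%, against 14.8%). With an intensity trend in limma, 10 of the 72 (13.9%) had an adjusted p below 0.05, beside 13.8% of all probes. A ratio above 2 on both arrays was met by 1 spot of 72 (1.39%), arginase type II, and by 2.78% of all probes. A ratio below 0.5 on both arrays was met by 1 spot of 72 (1.39%), glucose phosphate isomerase 1 complex, and by 3.03% of all probes. The study's thresholds are 2 and 0.5 for the ratio, with more than 1000 for the signal of either channel, and how the arrays were combined is not stated. Applied here to the means of both arrays, they were met by arginase type II as the 1 up-expression spot of 37 (2.70%, against 5.33% of the bright probes) and by 3 down-expression spots (8.11%, against 5.42%). The 3 were glucose phosphate isomerase 1 complex, thymidylate kinase and glutamine synthetase pseudogene 1. The study's list of up-expression genes gives arginase type II a ratio of 2.7, as on array 1 here (2.74). Its ratio from the mean of both arrays was 3.67. The shares past 2-fold rest on 1 to 3 metabolic spots each and were not tested against those of all probes. No single enzyme was called by the test, and the values are given as ratios with their spread.

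**Figure D2:**
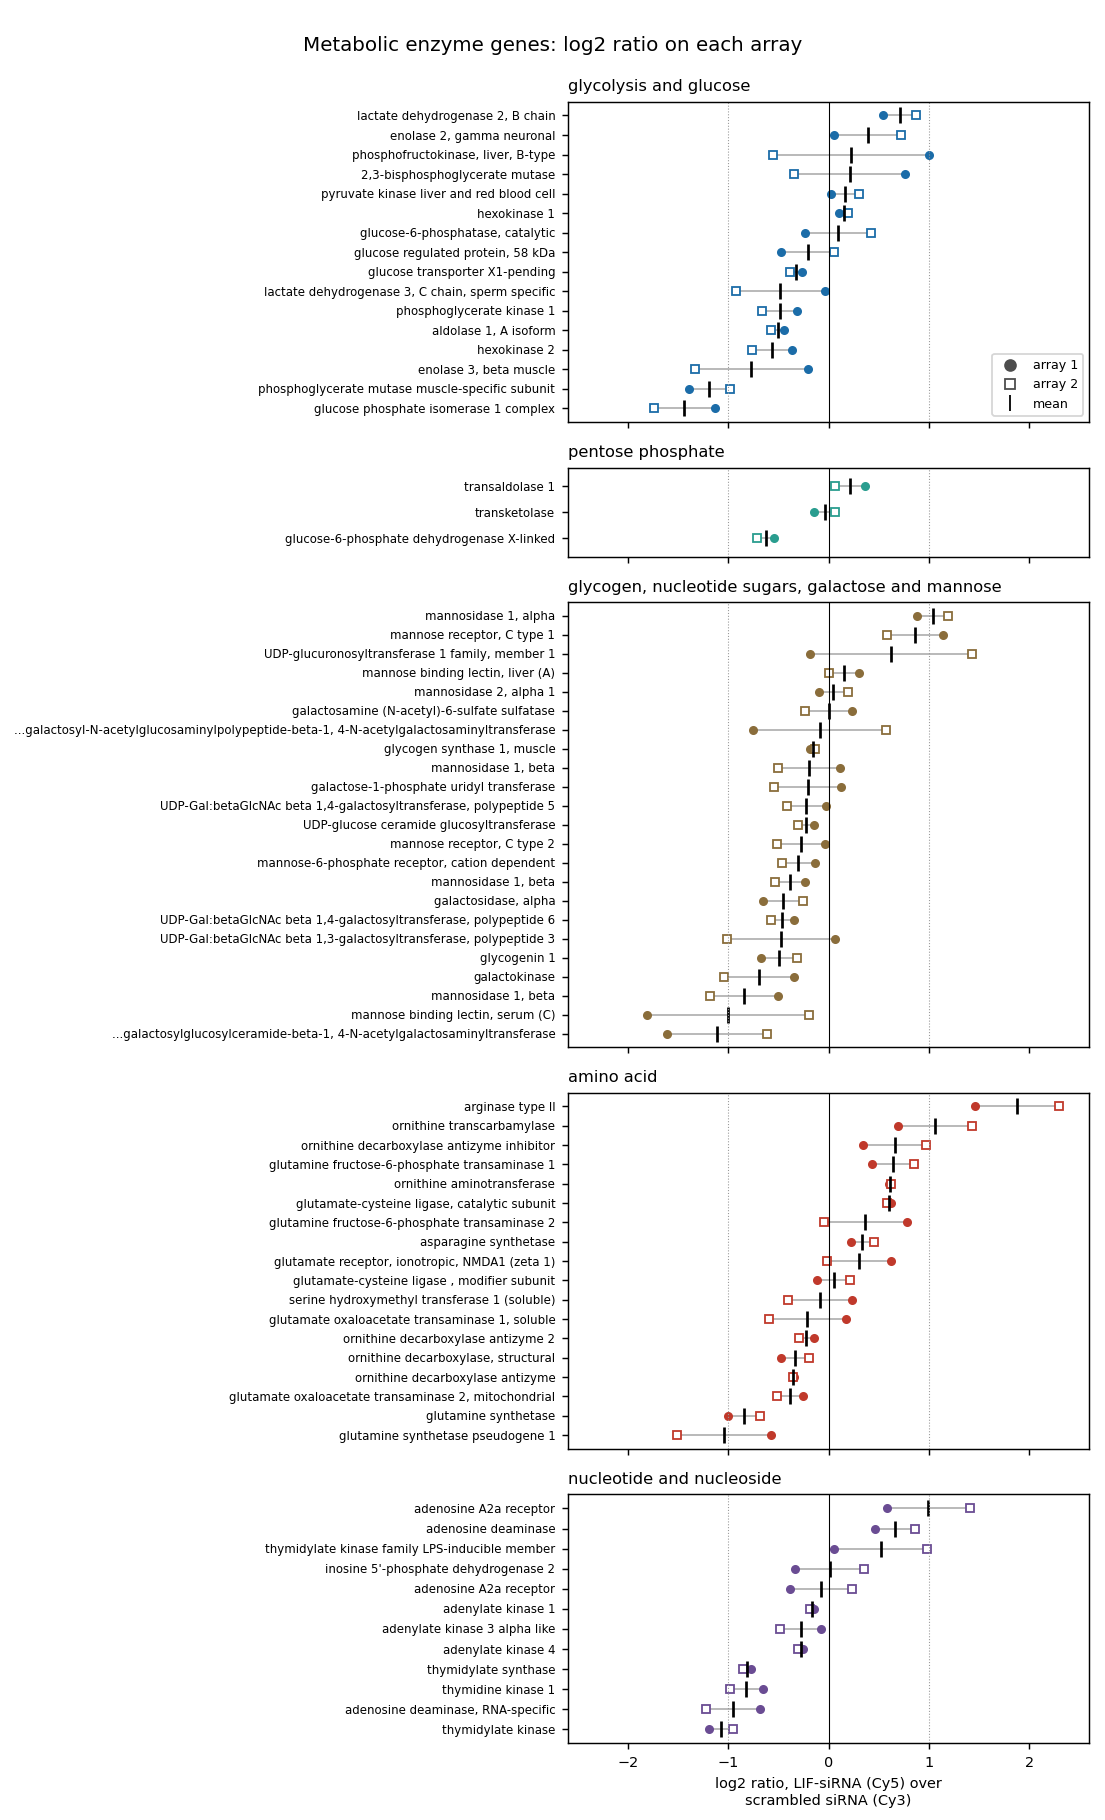
Log2 ratio of LIF-siRNA over scrambled siRNA (x axis) for the 72 metabolic spots (y axis) by pathway, with a filled circle for array 1, an open square for array 2 and a black bar for their mean; dotted lines mark ratios of 0.5 and 2. Arginase type II lies right of the line on both arrays and glucose phosphate isomerase 1 complex left of it on both.

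In glycolysis, 8 of the 16 spots had a ratio below 0 on both arrays (50%, beside 36.8% of all probes). For 4 it was above 0 on both (25%, beside 36.7%), and for 4 the sign differed between the arrays. The median log2 ratio was -0.27. Glucose phosphate isomerase 1 complex, which turns glucose 6-phosphate into fructose 6-phosphate, had signals of 441 and 430.5 in Cy5 against 965 and 1443 in Cy3. Both LIF-siRNA signals were below both scrambled signals. The log2 ratios were -1.13 and -1.74 with a mean of -1.44 ± 0.43 (SD, n = 2), a 2.71-fold lower signal, with a limma adjusted p of 0.0635. This was the lowest mean ratio of the 72 spots.

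The enzymes that open the pathway differed from each other in sign. Hexokinase 2, which phosphorylates glucose on its entry, had signals of 3824 and 3919 in Cy5 against 4935 and 6667 in Cy3. Its log2 ratios were -0.37 and -0.77, with a mean of -0.57 ± 0.28 (SD, n = 2) and a limma adjusted p of 0.172. Hexokinase 1, which catalyses the same step, had 2990.2 and 2170.0 in Cy5 against 2785 and 1897 in Cy3 and log2 ratios of 0.10 and 0.19. Both ratios were above 0, with a mean of 0.15 ± 0.065 (SD, n = 2) and a limma adjusted p of 0.66. Liver phosphofructokinase, which commits fructose 6-phosphate to glycolysis, gave opposite signs on the arrays, 1.00 and -0.55, and so no direction.

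In the middle of the pathway aldolase and phosphoglycerate kinase, both past the brightness threshold, again read lower. Aldolase 1, A isoform, which splits fructose 1,6-bisphosphate, had 9043 and 9376 in Cy5 against 12328 and 13927 in Cy3. The arrays were close, with log2 ratios of -0.45 and -0.57 and a mean of -0.51 ± 0.088 (SD, n = 2), a 1.42-fold lower signal (limma adjusted p 0.181). Phosphoglycerate kinase 1, which makes ATP, had 5381 and 5836 in Cy5 against 6686 and 9263 in Cy3 and log2 ratios of -0.31 and -0.67. In both cases each LIF-siRNA signal was below each scrambled signal. The muscle subunit of phosphoglycerate mutase, the next enzyme, had dim signals of 88.6 and 118 in Cy5 against 233 and 233 in Cy3 and a mean log2 ratio of -1.19 ± 0.29 (SD, n = 2) (limma adjusted p 0.0699). With normexp background correction and loess normalization together the mean was -0.72. Enolase 3, the muscle form, had log2 ratios of -0.20 and -1.34, whereas enolase 2, the neuronal form, had 0.056 and 0.72, on signals of at most 335 in any channel.

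The last steps of the pathway had no common direction. Liver and red blood cell pyruvate kinase, which makes pyruvate and ATP, had 1052 and 1154 in Cy5 against 1038 and 935 in Cy3 and a mean log2 ratio of 0.16 ± 0.20 (SD, n = 2). Lactate dehydrogenase 2, B chain, which interconverts pyruvate and lactate, was the highest of the glycolytic spots with 360.1 and 404 in Cy5 against 247 and 221 in Cy3. This spot was dim, with log2 ratios of 0.54 and 0.87 and a limma adjusted p of 0.117. The sperm form, lactate dehydrogenase 3, C chain, had signals of at most 67.1 and log2 ratios of -0.038 and -0.93. The catalytic subunit of glucose-6-phosphatase, which frees glucose in liver, was also dim, and its arrays differed in sign (-0.23 and 0.42). The arrays also disagreed for 2,3-bisphosphoglycerate mutase, the enzyme of red cell 2,3-bisphosphoglycerate (0.76 and -0.35).

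The remaining 2 names that begin with glucose are no enzymes of glycolysis. Glucose transporter X1-pending, a sugar carrier, had 1565 and 1500.2 in Cy5 against 1887 and 1965 in Cy3 and log2 ratios of -0.27 and -0.39. Glucose regulated protein, 58 kDa, a disulfide isomerase of the endoplasmic reticulum, had 7189 and 8255 in Cy5 against 10002 and 7930.1 in Cy3, and its log2 ratios of -0.48 and 0.058 differed in sign.

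The pentose phosphate pathway was read by 3 spots, and its oxidative and non-oxidative enzymes did not share a direction. Glucose-6-phosphate dehydrogenase X-linked, which makes the first NADPH, had 753 and 981 in Cy5 against 1097 and 1609 in Cy3. Both LIF-siRNA signals were below both scrambled signals. The log2 ratios of -0.54 and -0.71 gave a mean of -0.63 ± 0.12 (SD, n = 2), a 1.55-fold lower signal (limma adjusted p 0.13). Transketolase, which moves carbon pairs between sugars, had 2348 and 2638 in Cy5 against 2594 and 2524 in Cy3, with log2 ratios of -0.14 and 0.063 around 0. Transaldolase 1, its partner in the non-oxidative arm, had 1027 and 969.7 in Cy5 against 797 and 925 in Cy3 and log2 ratios of 0.36 and 0.068.

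**Figure D3:**
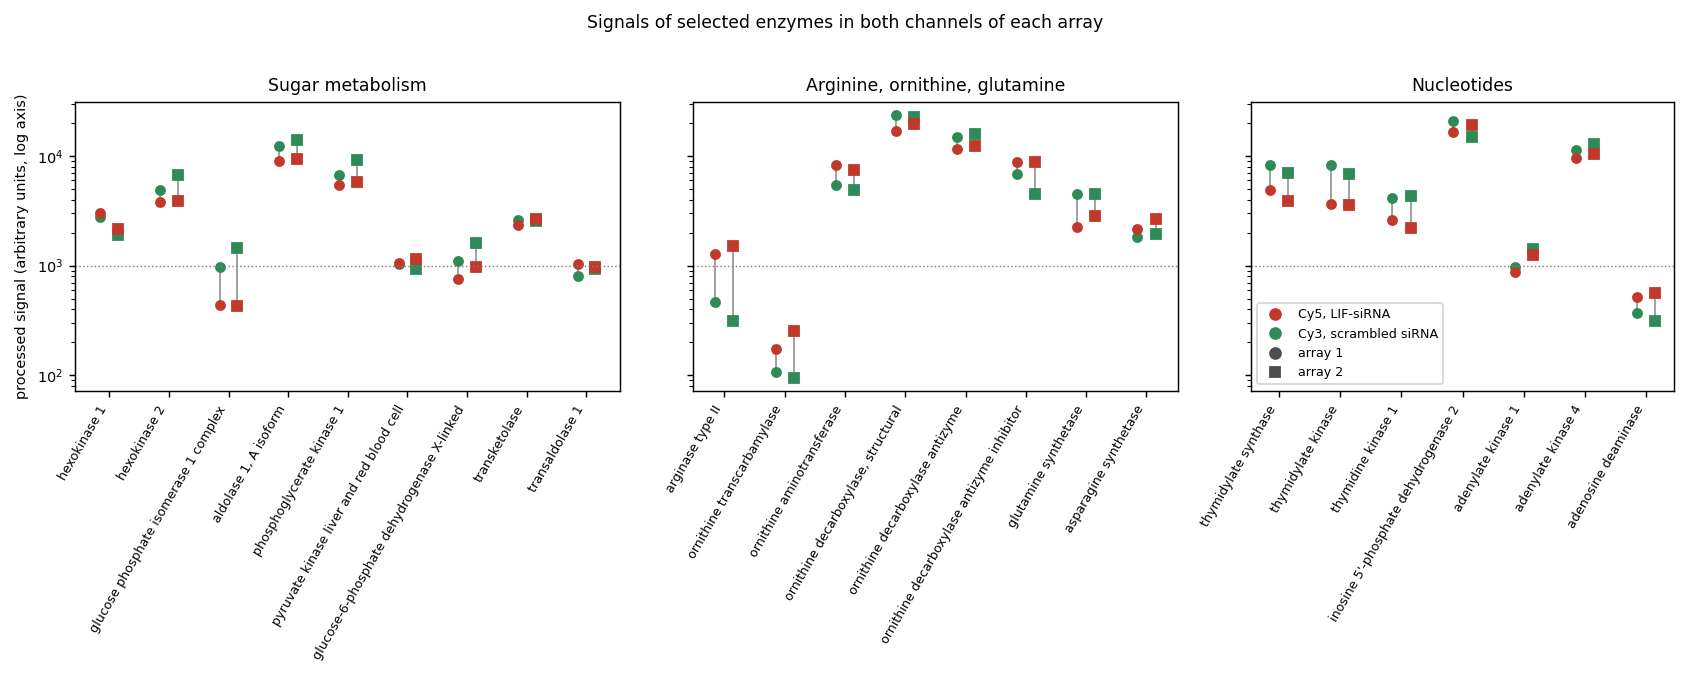
Processed signals (y axis, arbitrary units, log axis) of selected enzymes in Cy5 (red, LIF-siRNA) and Cy3 (green, scrambled siRNA), with circles for array 1, squares for array 2 and a dotted line at the signal threshold of 1000. The red points lie below the green ones on both arrays for aldolase 1, A isoform, glutamine synthetase, thymidylate synthase, thymidylate kinase and thymidine kinase 1 and above them for arginase type II and ornithine aminotransferase.

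Of the 23 spots for glycogen, nucleotide sugars, galactose and mannose, 13 had a ratio below 0 on both arrays and 3 above 0 on both, with a median log2 ratio of -0.23. Galactokinase, which phosphorylates galactose for its use as a fuel, had 3664 and 2681 in Cy5 against 4670.4 and 5542 in Cy3. Both LIF-siRNA signals were below both scrambled signals, although the size differed between the arrays, with log2 ratios of -0.35 and -1.05 and a mean of -0.70 ± 0.49 (SD, n = 2) (limma adjusted p 0.156). Galactose-1-phosphate uridyl transferase, the next enzyme, gave opposite signs (0.12 and -0.54). Glycogenin 1, the protein primer of glycogen, had 1743 and 2198 in Cy5 against 2788 and 2742 in Cy3 and log2 ratios of -0.68 and -0.32. Glycogen synthase 1, the muscle enzyme that extends the chain, was dim, with log2 ratios of -0.18 and -0.14.

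The galactosyltransferases and lysosomal sugar enzymes had no mean ratio above 0 beyond the spread of the arrays. UDP-glucose ceramide glucosyltransferase, which makes glucosylceramide, had 1495 and 1600.0 in Cy5 against 1651 and 1984 in Cy3 and log2 ratios of -0.14 and -0.31. Alpha galactosidase, which removes galactose from glycolipids in lysosomes, had 1116 and 1347 in Cy5 against 1757 and 1605 in Cy3 and log2 ratios of -0.65 and -0.25. Beta 1,4-galactosyltransferase polypeptides 5 and 6, which add galactose to glycan chains, had mean log2 ratios of -0.22 ± 0.28 (SD, n = 2) and -0.46 ± 0.16 (SD, n = 2). For beta 1,3-galactosyltransferase polypeptide 3 the arrays read 0.061 and -1.01. Galactosamine (N-acetyl)-6-sulfate sulfatase, a lysosomal enzyme of keratan sulfate breakdown, read 0.24 and -0.24, with signs that cancelled. The 2 spots of beta-1,4-N-acetylgalactosaminyltransferases were dim. The spot of the ganglioside enzyme read -1.62 and -0.61, and that of the enzyme acting on glycoprotein chains read -0.75 and 0.57.

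Mannosidase 1, beta, which trims mannose from N-glycans in the Golgi, was spotted as 3 clones. The first had 1018 and 589.8 in Cy5 against 1449 and 1344 in Cy3 and log2 ratios of -0.51 and -1.19. The second had 1585 and 1061 in Cy5 against 1866 and 1534 in Cy3 and log2 ratios of -0.24 and -0.53. For the third the signs differed, with log2 ratios of 0.12 and -0.51. The means of the 3 clones, -0.85, -0.38 and -0.19, were all negative. Mannosidase 1, alpha, a related trimming enzyme, read the other way on a dim spot of 218 and 315 in Cy5 against 118 and 138 in Cy3, with log2 ratios of 0.89 and 1.19 and a limma adjusted p of 0.077. Mannosidase 2, alpha 1, which acts later in the Golgi, had log2 ratios of -0.098 and 0.19.

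Among the names of this set that are no enzymes, the cation dependent mannose-6-phosphate receptor, which carries lysosomal enzymes, was bright with 3686 and 2983 in Cy5 against 4065 and 4132 in Cy3 and log2 ratios of -0.14 and -0.47. The mannose receptors and lectins, known from macrophages and liver, had dim spots. Mannose receptor, C type 1 had log2 ratios of 1.14 and 0.58, C type 2 had -0.041 and -0.52, and the mannose binding lectins had -1.81 and -0.19 for the serum form (C) and 0.30 on array 1 and close to 0 on array 2 for the liver form (A). UDP-glucuronosyltransferase 1 family, member 1, which conjugates bilirubin in liver, gave opposite signs of -0.19 and 1.43 on signals of at most 300.4.

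The amino acid spots had shares near those of all probes. Of 17 enzymes and regulators in the fit, 7 had a ratio above 0 on both arrays (41.2%, beside 36.7% of all probes). Another 6 were below 0 on both (35.3%, beside 36.8%), and 4 differed in sign. The median log2 ratio of the 17 was 0.050. The NMDA1 receptor subunit, the 18th spot of the group, brought the median to 0.18, which was 0.055 with normexp and loess, 0.079 with median centring and -0.084 among the bright spots. Arginase type II, the mitochondrial enzyme that splits arginine into ornithine and urea, had 1273 and 1524 in Cy5 against 464 and 309.7 in Cy3. Each LIF-siRNA signal was above 1000 and each scrambled signal below it. The log2 ratios of 1.46 and 2.30 gave a mean of 1.88 ± 0.60 (SD, n = 2), a 3.67-fold higher signal and the highest mean ratio of the 72 spots, with a limma adjusted p of 0.0607.

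Both mitochondrial enzymes among the spots that use ornithine also had higher LIF-siRNA signals. Ornithine aminotransferase, which leads ornithine toward glutamate and proline, was bright with 8282 and 7460.5 in Cy5 against 5474 and 4848 in Cy3. The arrays nearly coincided, with log2 ratios of 0.60 and 0.62 and a mean of 0.61 ± 0.017 (SD, n = 2), a 1.53-fold higher signal (limma adjusted p 0.132). Ornithine transcarbamylase, which makes citrulline in the urea cycle of liver and gut, was dim with 175 and 256 in Cy5 against 108 and 95.3 in Cy3 and log2 ratios of 0.69 and 1.42 (limma adjusted p 0.0928).

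Ornithine decarboxylase, which opens polyamine synthesis, and its regulators stood on both sides of 0. The structural ornithine decarboxylase spot had 17010.2 and 19552 in Cy5 against 23719.9 and 22386 in Cy3, and its log2 ratios of -0.48 and -0.20 gave a mean of -0.34 ± 0.20 (SD, n = 2) (limma adjusted p 0.347). Ornithine decarboxylase antizyme, which binds the enzyme and sends it to the proteasome, had 11618 and 12329 in Cy5 against 14784 and 15771 in Cy3 and log2 ratios of -0.35 and -0.36. Antizyme 2, a second such protein, had 4588 and 4921 in Cy5 against 5081 and 6059 in Cy3 and log2 ratios of -0.15 and -0.30. The antizyme inhibitor, which binds antizyme and so spares the decarboxylase, had 8748 and 8752 in Cy5 against 6888 and 4465 in Cy3 and log2 ratios of 0.34 and 0.97, with a mean of 0.66 ± 0.44 (SD, n = 2) (limma adjusted p 0.161). The enzyme and both antizymes were thus lower within each array and the antizyme inhibitor was higher.

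Glutamine synthetase, which joins ammonia to glutamate, had 2268 and 2807 in Cy5 against 4537 and 4513 in Cy3. Both LIF-siRNA signals were below both scrambled ones, and the log2 ratios of -1.0 and -0.69 gave a mean of -0.84 ± 0.22 (SD, n = 2) (limma adjusted p 0.0954). The spot named glutamine synthetase pseudogene 1 had 1437 and 954 in Cy5 against 2143 and 2723 in Cy3, with log2 ratios of -0.58 and -1.51 and a mean of -1.04 ± 0.66 (SD, n = 2) (limma adjusted p 0.104). A cDNA spot can bind transcripts of similar sequence, so RNA of the gene and of the pseudogene cannot be told apart. Asparagine synthetase, which moves the amide of glutamine to aspartate, had 2144 and 2632 in Cy5 against 1839.6 and 1929 in Cy3 and log2 ratios of 0.22 and 0.45, the other direction.

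Glutamate-cysteine ligase makes the first bond of glutathione, and its subunits read apart. The catalytic subunit had 2272 and 2935 in Cy5 against 1477 and 1958 in Cy3, with log2 ratios of 0.62 and 0.58 and a mean of 0.60 ± 0.027 (SD, n = 2) (limma adjusted p 0.135). For the modifier subunit, with 5049.6 and 5792 in Cy5 against 5476 and 4985 in Cy3, the signs differed (-0.12 and 0.22). Both glutamine fructose-6-phosphate transaminases, which start hexosamine synthesis, were dim, with log2 ratios of 0.43 and 0.85 for form 1 and 0.78 and -0.047 for form 2. The Cy3 signal of form 2 was well above background on 1 of 2 arrays.

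The aspartate aminotransferases, which exchange amino groups between aspartate and glutamate, differed in how far the arrays agreed. The mitochondrial glutamate oxaloacetate transaminase 2 had 1883 and 2011 in Cy5 against 2255 and 2881 in Cy3 and log2 ratios of -0.26 and -0.52, whereas the soluble form 1 read 0.17 and -0.60. Soluble serine hydroxymethyl transferase 1, which feeds one-carbon units to folate, had 5966 and 4016 in Cy5 against 5072 and 5305 in Cy3 and no common sign (0.23 and -0.40). The NMDA1 subunit of the ionotropic glutamate receptor, a channel of neurons, read 0.62 and -0.015.

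Thymidylate synthase, thymidylate kinase and thymidine kinase 1 make thymidine nucleotides. All 3 were bright and had lower LIF-siRNA signals on both arrays. Thymidylate synthase, which methylates dUMP to dTMP, had 4864 and 3884 in Cy5 against 8304 and 7006 in Cy3. Its log2 ratios were -0.77 and -0.85, with a mean of -0.81 ± 0.056 (SD, n = 2), a 1.75-fold lower signal (limma adjusted p 0.0934). Thymidylate kinase, which phosphorylates dTMP to dTDP, had 3611 and 3531 in Cy5 against 8229 and 6835 in Cy3. Its log2 ratios were -1.19 and -0.95, with a mean of -1.07 ± 0.17 (SD, n = 2), a 2.10-fold lower signal (limma adjusted p 0.0726). Thymidine kinase 1, which makes dTMP from salvaged thymidine, had 2602 and 2204 in Cy5 against 4109 and 4349 in Cy3, log2 ratios of -0.66 and -0.98 and a mean of -0.82 ± 0.23 (SD, n = 2) (limma adjusted p 0.0981). For each of the 3, both LIF-siRNA signals lay below both scrambled signals. That order was met by 22 of the 37 bright metabolic spots (59.5%) and by 35.2% of the bright probes. The thymidylate kinase family LPS-inducible member, a separate gene by its name, read the other way. It was dim, with 131 and 66.3 in Cy5 against 126 and 33.6 in Cy3 and log2 ratios of 0.058 and 0.98, with Cy3 well above background on 1 of 2 arrays.

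Of the purine enzymes, inosine 5'-phosphate dehydrogenase 2, which leads to guanine nucleotides, had 16409.5 and 19138 in Cy5 against 20673 and 15011 in Cy3. Its arrays gave opposite ratios of -0.33 and 0.35, and the mean of 0.0086 ± 0.48 (SD, n = 2) changed sign with the normalization. The adenylate kinases, which balance the adenine nucleotides, had small ratios of one sign. Adenylate kinase 4 had 9502 and 10485 in Cy5 against 11316 and 12947 in Cy3 and log2 ratios of -0.25 and -0.30, adenylate kinase 1 read -0.15 and -0.19, and adenylate kinase 3 alpha like, a dim spot, read -0.072 and -0.48. Adenosine deaminase, which turns adenosine into inosine, had 513 and 564 in Cy5 against 374 and 311 in Cy3, with higher LIF-siRNA signals on both arrays, log2 ratios of 0.46 and 0.86 and a limma adjusted p of 0.135. The RNA-specific adenosine deaminase edits adenosines within RNA rather than the free nucleoside. It read the other way on a dim spot, with 67.4 and 84.8 in Cy5 against 108 and 198 in Cy3 and log2 ratios of -0.68 and -1.23. The adenosine A2a receptor, a surface receptor and no enzyme, was spotted as 2 dim clones whose means differed in sign. One clone read 0.58 and 1.41, and the other read -0.39 and 0.23.

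**Figure D4:**
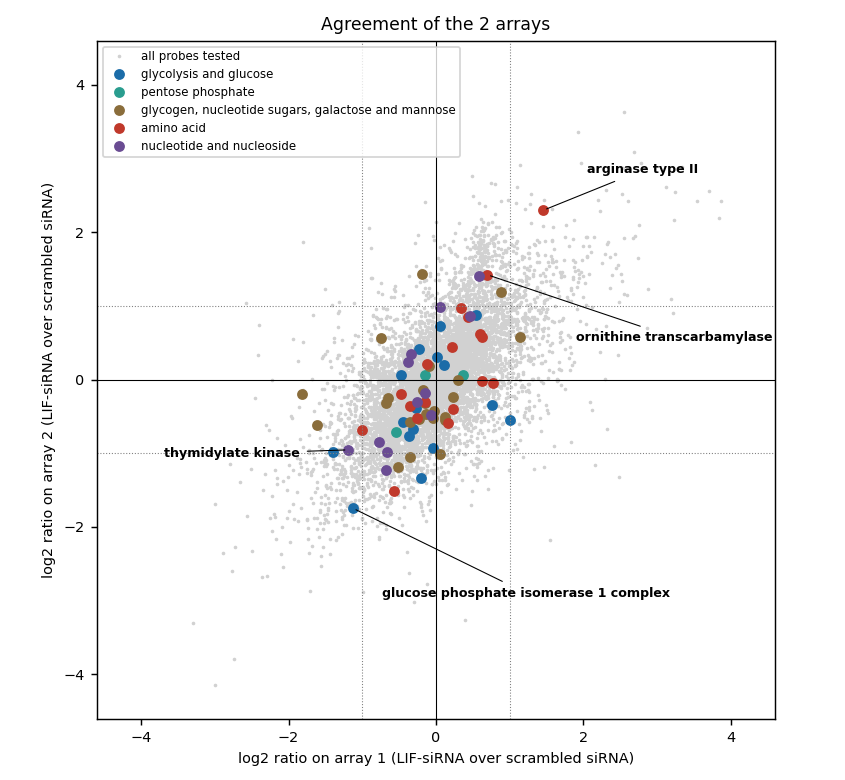
Log2 ratio on array 1 (x axis) against array 2 (y axis) for the 72 metabolic spots, colored by pathway, over the 8079 probes tested (grey); dotted lines mark ratios of 0.5 and 2. Arginase type II stands apart at the upper right, and glucose phosphate isomerase 1 complex is the 1 metabolic spot beyond both dotted lines at the lower left.

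The arrays agreed to a moderate degree. Over the 72 spots Pearson's r between the arrays was 0.588 and Spearman's rho 0.573, beside an r of 0.639 over all probes. Over the 37 bright spots r was 0.795 and rho 0.713, beside an r of 0.758 over the bright probes. Points on this plot share 2 arrays, their dye order and the clone spotted, and they are not replicates. The median SD between the arrays was 0.287 for the 72 spots and 0.249 for all probes on the log2 scale.

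Other genes of the same pathways were taken by a further list of name starts. The list matched 37 spots, of which 9 are outside the pathways by their names (purinergic receptors and the like) and 1, a second clone of purine-nucleoside phosphorylase, carried an outlier mark and was left out. The 27 pathway spots of the fit had a median log2 ratio of -0.23, beside -0.0040 for all probes. Of them, 14 were below 0 on both arrays (51.9%, beside 36.8% of all probes). Another 7 were above 0 on both (25.9%, beside 36.7%). These counts were not tested. None of the 27 had a limma adjusted p below 0.05, and at an unadjusted p below 0.05 there were 8 lower and 4 higher spots, beside 14.8% and 15.9% of all probes. A ratio past 2-fold on both arrays was met by 2 lower and 2 higher spots, beside 3.03% and 2.78% of all probes.

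Triosephosphate isomerase, which interconverts the products of aldolase, was 1 of the 2 lower spots, with 614 and 585 in Cy5 against 1262 and 1975 in Cy3. Its log2 ratios were -1.04 and -1.75 and the mean was -1.40 ± 0.51 (SD, n = 2) (limma adjusted p 0.0691), the same sign as for glucose phosphate isomerase and aldolase. Fructose bisphosphatase 2, which runs the phosphofructokinase step backward, was bright with 4801 and 5735 in Cy5 against 10187 and 10425 in Cy3 and also read lower, with log2 ratios of -1.09 and -0.86. Both a glycolytic and a gluconeogenic enzyme thus had lower LIF-siRNA signals.

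Spermidine synthase, which makes spermidine from putrescine, was the other lower spot, with 1354 and 1251 in Cy5 against 3293 and 3897 in Cy3, log2 ratios of -1.28 and -1.64 and a mean of -1.46 ± 0.25 (SD, n = 2) (limma adjusted p 0.0607). Spermine synthase, which extends spermidine, had 16388 and 15914 in Cy5 against 12444 and 11381 in Cy3 and log2 ratios of 0.40 and 0.48. Spermidine/spermine N1-acetyl transferase, which starts polyamine breakdown, had 17684 and 18751 in Cy5 against 10869 and 8119 in Cy3 and log2 ratios of 0.70 and 1.21, with a limma adjusted p of 0.0919. S-adenosylmethionine decarboxylase 1, which supplies the aminopropyl groups, gave opposite signs (-0.23 and 0.46). Among the polyamine enzymes, ornithine decarboxylase and spermidine synthase therefore read lower and spermine synthase and the acetyl transferase higher on both arrays.

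The 2 higher spots past 2-fold act on gamma-glutamyl bonds. Gamma-glutamyl hydrolase, which trims folate polyglutamates, had 785 and 685 in Cy5 against 192 and 179.6 in Cy3 and log2 ratios of 2.03 and 1.93, with a mean of 1.98 ± 0.071 (SD, n = 2) (limma adjusted p 0.058). Gamma-glutamyltransferase-like activity 1, a relative of the glutathione-cleaving transpeptidase, was dim with 175 and 213 in Cy5 against 82.2 and 57.8 in Cy3 and log2 ratios of 1.09 and 1.88. Its mean was 1.49 and came to 0.77, under 2-fold, with normexp correction and loess. Gamma-glutamyl transpeptidase itself read -0.87 and -0.49. Dihydrofolate reductase, which restores the folate used by thymidylate synthase, had 2422 and 2479 in Cy5 against 1885 and 1770.4 in Cy3 and log2 ratios of 0.36 and 0.49, opposite in sign to thymidylate synthase.

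In nucleotide synthesis, phosphoribosyl pyrophosphate synthetase 1, which activates ribose, had 24731 and 29561 in Cy5 against 19347 and 14907 in Cy3 and log2 ratios of 0.35 and 0.99. Cytidine 5'-triphosphate synthase, which makes CTP from UTP, had 2666 and 2547 in Cy5 against 4524 and 3985 in Cy3 and log2 ratios of -0.76 and -0.65. The purine enzymes phosphoribosylglycinamide formyltransferase, which acts in purine ring synthesis, and guanylate kinase 1, which phosphorylates GMP, read -0.42 and -0.86 and -0.35 and -0.43. The tested clone of purine-nucleoside phosphorylase, a salvage enzyme, was dim and read -1.55 and -0.95. Deoxyguanosine kinase, which salvages purine deoxynucleosides in mitochondria, had 1412 and 1433 in Cy5 against 911 and 1171 in Cy3 and log2 ratios of 0.63 and 0.29. Like the ribose-activating enzyme, it had higher LIF-siRNA signals on both arrays.

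**Figure D5:**
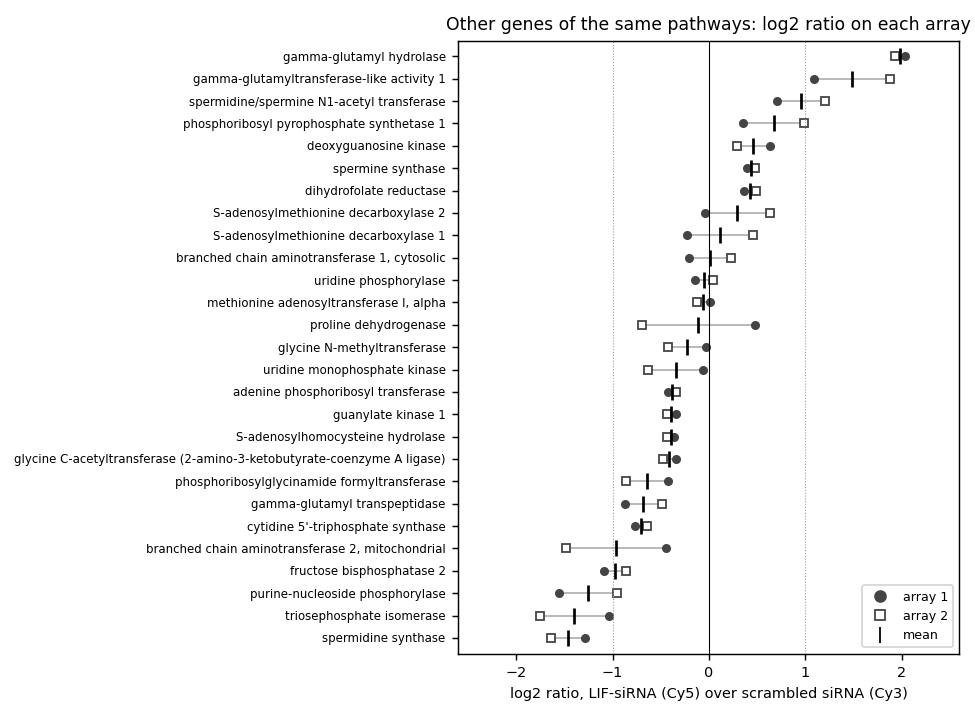
Log2 ratio of LIF-siRNA over scrambled siRNA (x axis) for the 27 other pathway spots (y axis), with a filled circle for array 1, an open square for array 2 and a black bar for their mean; dotted lines mark ratios of 0.5 and 2. Spermidine synthase and triosephosphate isomerase lie left of the lower line on both arrays, and gamma-glutamyl hydrolase and gamma-glutamyltransferase-like activity 1 lie right of the upper line on both.

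Markers of embryo cells and of other cells differed between the channels as well. The pluripotency gene POU domain, class 5, transcription factor 1 had log2 ratios of -0.28 and 0.049, SRY-box containing gene 2 had -2.999 and -1.69, and zinc finger protein 42 had 0.54 and 0.16. The 3 spots of the pluripotency list together had summed signals of 38958 to 39257 in Cy5 and 35978 to 40172 in Cy3, and this sum does not show the lower SRY-box ratio. Both trophectoderm spots together, keratin complex 2, basic, gene 8 and eomesodermin, had 3908 to 4844 in Cy5 and 7494 to 12250.2 in Cy3, but the lower sum rests on the keratin spot, which read -1.73 and -2.16, while eomesodermin read 0.28 and -0.0042. The 5 hemoglobin spots summed to 1762 to 1899 in Cy5 and 3745 to 4247 in Cy3, with 3 lower and 1 higher on both arrays. The lower sum rests on the spot of hemoglobin X, which read -1.30 and -1.28. It had 1610 and 1421 in Cy5 against 3979 and 3439 in Cy3. The other hemoglobin spots had signals of at most 133 and did not share a direction. Oviductal glycoprotein 1, the 1 oviduct marker, had 508 and 624 in Cy5 against 303 and 289.9 in Cy3. Cadherin 1, which compacts the morula, read 0.69 and 0.26. The lists rest on few spots, since 9 of the 21 marker entries matched no spot by name. The part of other cells or of a shift between embryo cell types in the metabolic ratios was not tested.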

How the data were processed

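Gene expression in mouse morulae was measured on 2 two-color cDNA arrays. The authors deposited intensities of each spot and its background as Agilent Feature Extraction wrote them, together with a processed intensity from which background was subtracted and which was dye-normalized; the software put surrogates in place of values near background. The authors' software normalized the dyes by rank-consistent lowess and gave a log10 ratio (Cy5 over Cy3), which was deposited and was here turned into log2. The deposited log2 table of the series followed mean brightness (r of 0.998 on both arrays) and not the ratio (r of -0.025 and -0.028), with column medians of 8.83 and 8.93. It was used for no value, and whether it was centred is not given in the sources used here. The number of arrays limits the precision.

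Controls and 23 gene spots with an outlier mark were not tested. The log2 ratio was tested with limma 3.58.1 in R 4.3.3 (lmFit and eBayes, intercept only, two-sided) over the 8079 probes that each array found well above background in Cy5 or Cy3, and p was adjusted by Benjamini-Hochberg (threshold 0.05). The study's methods name a t-test for quantified gene expression without saying whether the arrays are meant, and its thresholds (ratio above 2 or below 0.5, signal above 1000) were counted too, here on the geometric mean ratio and mean signal of both arrays. Tables were made with pandas 2.3.3 and numpy 2.4.6 and figures with matplotlib 3.10.9, in Python 3.11.15. Tested on simulated data for this comparison, with 200 of 8079 probes changed, the fit called 0 of the 200 at 2-fold, 164 at 4-fold and 198 at 8-fold. It also called 0, 9 and 11 of the unchanged probes. The simulation drew independent noise around a log2 ratio of 0 for all other probes, so its rates need not hold for these arrays. In the data no probe was called, although mean log2 ratios ran from -3.58 to 3.15.

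The genes, pathway groups and lists were chosen with earlier results of these data known. Genes named by rule were those past 2-fold on both arrays, the 2 with the highest mean signal in each group, those past the study's criteria, and names whose spots disagreed in sign. The remaining genes were described as further members, in pathway order, after their values were seen. Gene names are those of the array design and may be old. The reference table matched 0 of the 73 names and 0 of the clone accessions, so no symbol or sequence was taken. Alternatives were another background correction with loess (normexp, offset 50), median centring, other filters on dim and outlier spots, an intensity trend, the methods' t-test (one-sample), means by gene name, a 1.5-fold threshold and each array left out.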

Additional observations from a re-analysis of the deposited data

How the results depend on the processing

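The count of 0 metabolic spots with a limma adjusted p below 0.05 became 13 with median centring (18.1%, beside 16.5% of all probes), 10 with an intensity trend (13.9%, beside 13.8%), 6 among the 37 spots with a signal above 1000 (16.2%, beside 18.7%) and 1 when both channels had to be well above background (1.43%, beside 3.09%). It stayed 0 with normexp and loess (0%, beside 1.96% of all probes). It was also 0 without a filter on dim probes, with outlier spots kept, with means by gene name and with the methods' t-test. In these settings no probe of the array was called either. Before adjustment the t-test gave 4 spots (5.56%, beside 10.7%). With median centring the limma adjusted p was 0.00559 for glucose phosphate isomerase 1 complex, 0.0138 for thymidylate kinase, 0.0251 for glutamine synthetase pseudogene 1, 0.00167 for arginase type II and 0.0265 for the higher adenosine A2a receptor clone. The cause was not tested. By the study's criteria, the 1 higher spot became 3 with no threshold on the signal (4.11%, beside 6.55% of all spots) and 0 with a signal above 1000 in both channels (beside 2.74%), and the 3 lower spots became 6 with no threshold on the signal (8.22%, beside 5.13%). Past 2-fold on both arrays, the 1 higher spot became 4 at 1.5-fold (5.56%, beside 10.1%), and the 1 lower spot became 0 with normexp and loess (beside 1.65%), 2 with median centring (2.78%, beside 3.03%) and 8 at 1.5-fold (11.1%, beside 9.64%).

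Without array 1 the study's criteria gave 5 lower spots (12.8%, beside 7.46%) and without array 2 they gave 2 (5.41%, beside 6.15%), with 1 higher spot either way (beside 7.29% and 5.03%). The 2-fold threshold then gave 5 higher and 7 lower spots without array 1 (6.94% and 9.72%, beside 9.49% and 7.97%) and 3 higher and 6 lower without array 2 (4.17% and 8.33%, beside 6.33% and 6.04%). The medians then ran from -0.30 to -0.14 for all 72 spots, from -0.47 to -0.22 for glycolysis, from -0.14 to 0.063 for the pentose phosphate pathway, from -0.32 to -0.14 for glycogen and sugars, from -0.031 to 0.23 for amino acids and from -0.29 to -0.25 for nucleotides. Among spots with a signal above 1000 the medians were -0.33 for all, -0.33 for the pentose phosphate pathway, -0.45 for glycogen and sugars, -0.084 for amino acids and -0.54 for nucleotides. The nucleotide median was -0.11 with normexp and loess and -0.28 with both channels well above background. The amino acid median was 0.055 with normexp and loess, 0.079 with median centring and 0.050 without a filter on dim probes or with both channels well above background, and the pentose phosphate median was -0.16 with median centring. The sign turned for the lower adenosine A2a receptor clone, to 0.10 with normexp and 0.16 with median centring, and for inosine 5'-phosphate dehydrogenase 2, to -0.020 and -0.12. In all, 3 of 72 spots changed sign with normexp and 4 with median centring, the largest of them at 0.16 from 0.

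No further paired analysis was possible because the log ratio of an array, which the fit used, is already the paired difference of its channels. A slide block could not be fitted, since each slide holds 1 array, and with 1 array left out no limma count can be had. Normexp and loess changed the background correction and the normalization together, so their parts cannot be told apart.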
